A study of Mus musculus with 8 samples.

Results

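The 10 genes described here encode secreted glycoproteins of the basement membrane other than collagens. They were chosen by symbol, as genes listed for this role and counted in both of the study's tables, and make up 10 of the 24421 genes counted. They are the laminin chains Lama1, Lama5, Lamb1, Lamb2 and Lamc1, the nidogens Nid1 and Nid2, perlecan (Hspg2), Sparc and fibronectin (Fn1). Together they took between 0.338% and 0.520% of the counts of a library.

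A basement membrane is a thin sheet of matrix under epithelial cells. Laminins are trimers of an alpha, a beta and a gamma chain that self-assemble on the cell surface, where integrins and dystroglycan bind the alpha chain. Collagen IV forms a second network, and nidogens and the proteoglycan perlecan link it to laminin. In the mouse embryo the primitive endoderm and its descendants deposit this matrix, and embryonic stem cells in culture also transcribe laminin genes.

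Poly(A) RNA was sequenced from mouse embryonic stem cells, the cultured counterpart of the inner cell mass, in 4 groups of 2 libraries. Ubc9-depleted cells are v6.5 cells treated with doxycycline (DOX) for 72 hours to remove Ubc9, the E2 enzyme that conjugates SUMO, and Ubc9-WT cells are their v6.5 control. H1-TKO cells lack the linker histones H1.2, H1.3 and H1.4, and H1-WT cells are their control, both lines coming from an earlier publication. All groups were kept in 2i/LIF, a medium that holds cells in a naive state, for 3 to 4 passages. The labels do not say whether Ubc9-WT cells received DOX, how many clones each line stands for, or whether the 2 libraries of a group are separate cultures, so p-values measure the spread between these libraries, which may be technical. The comparisons used different cell lines and library kits, and kit, line and perturbation cannot be told apart between them.

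The libraries held 75972231 to 102780141 counts in the Ubc9 groups and 44441713 to 68445181 in the H1 groups, so that 3 counts correspond to 0.0292 to 0.0675 CPM (counts scaled to a common library size, with TMM factors). Hist1h1c, Hist1h1d and Hist1h1e, which encode the deleted H1 variants, had 0 counts in both H1-TKO libraries and 100 to 231 counts in the H1-WT libraries. All 10 embryonic stem cell markers listed (Pou5f1, Nanog and Sox2 among them) had counts in all 8 libraries. Ubc9-depleted library 1 stood apart. It had counts on 23462 genes, against 19591 in the other Ubc9-depleted library and 18584 to 18872 in the Ubc9-WT libraries, and all 10 basement membrane genes were lower in it than in Ubc9-depleted library 2, as were 75.7% of the 8589 genes at 10 CPM or more. The H1-WT libraries also differed from each other, with a standard deviation of the log2 ratio of counts between them of 0.79, against 0.51 between the H1-TKO libraries.

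The promoters of Lama5, Nid1 and Sparc are shown because these are the genes whose response differed between the comparisons. RefSeq promoters (GRCm38.p6) were matched by symbol for 6 of the 10 genes, namely Lama5, Lamb1, Lamb2, Nid1, Hspg2 and Sparc, and not for Lama1, Lamc1, Nid2 and Fn1. Each sequence is the 250 bases before the RefSeq start, 5′ to 3′ on the gene's strand, with GC boxes (GGGCGG or its reverse complement CCGCCC) in capitals. They lie at chr2:180225860-180226109 on the minus strand for Lama5, chr13:13437352-13437601 on the plus strand for Nid1 and chr11:55420081-55420330 on the minus strand for Sparc. The Sparc window falls wholly, and the Nid1 window at its 3′ end, inside the GENCODE span of the gene, which starts further upstream.
Lama5: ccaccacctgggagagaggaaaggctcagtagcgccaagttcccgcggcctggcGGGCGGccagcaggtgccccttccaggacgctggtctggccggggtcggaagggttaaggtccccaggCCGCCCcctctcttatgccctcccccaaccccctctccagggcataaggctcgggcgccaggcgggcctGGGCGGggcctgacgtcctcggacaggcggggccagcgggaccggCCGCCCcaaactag
Nid1: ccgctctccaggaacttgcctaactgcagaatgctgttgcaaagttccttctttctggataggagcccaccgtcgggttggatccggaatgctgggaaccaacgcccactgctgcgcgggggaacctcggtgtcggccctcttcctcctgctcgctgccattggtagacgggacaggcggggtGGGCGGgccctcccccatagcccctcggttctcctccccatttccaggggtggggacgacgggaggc
Sparc: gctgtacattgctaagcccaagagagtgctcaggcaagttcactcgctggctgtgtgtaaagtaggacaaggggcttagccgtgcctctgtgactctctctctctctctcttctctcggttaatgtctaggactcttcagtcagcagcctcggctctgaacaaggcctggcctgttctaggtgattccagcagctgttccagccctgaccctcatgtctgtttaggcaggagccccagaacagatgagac
The Lama5 window had 4 GC boxes, 19 CpG dinucleotides and a G+C content of 72.4%. The Nid1 window had 1 GC box, 16 CpG dinucleotides and a G+C content of 64.4%. The Sparc window had 0 GC boxes, 4 CpG dinucleotides and a G+C content of 54.0%. Over all 32851 RefSeq promoter windows the median was 6 CpG dinucleotides and 52.4% G+C, and 32.7% held at least 1 GC box on either strand. CCAAT or its reverse complement was found once, in Nid1, and in 33.8% of all windows, while TATAAA on either strand was in none of the 3 and in 12.4% of all windows. The Lama5 and Nid1 windows were above both medians, and Sparc had fewer CpG dinucleotides than the median window. These matches describe letters and not binding.

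**Figure D1:**
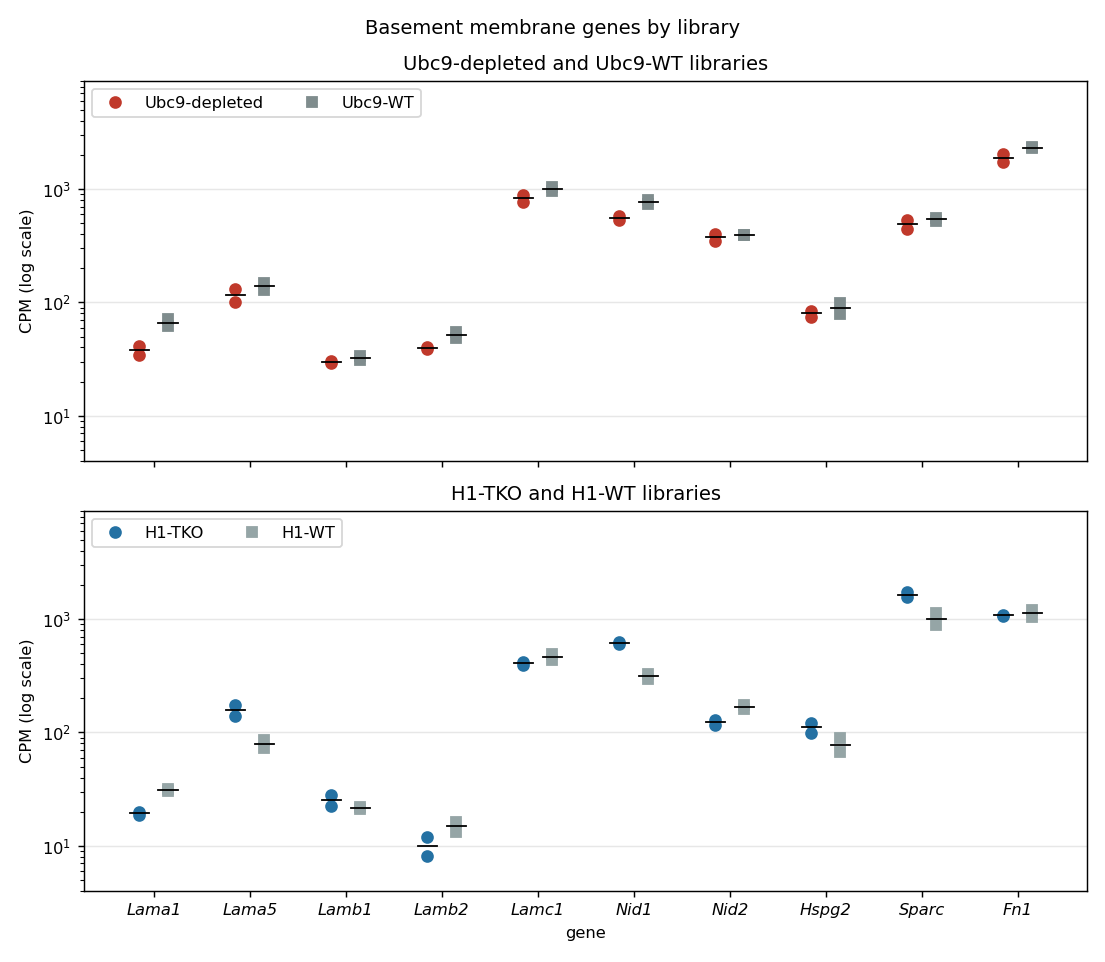
CPM (log scale) of the 10 basement membrane genes in each library, with a black line at the mean of each group of 2. Fn1 and Lamc1 lie near the top of the Ubc9 panel, and Sparc and Fn1 near the top of the H1 panel. Lama1 is lower in Ubc9-depleted than in Ubc9-WT libraries and in H1-TKO than in H1-WT libraries, and Nid1 and Lama5 lie higher in H1-TKO than in H1-WT libraries.

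Depletion of Ubc9 lowered a minority of these genes and raised none. By edgeR's quasi-likelihood test with Benjamini-Hochberg adjustment over 16499 genes at 0.05, 3 of the 10 fell (Lama1, Lamb2 and Nid1) and 0 rose, where 15.0% of all genes tested were called lower and 21.1% higher. At an unadjusted edgeR p under 0.05 the counts were 5 lower and 0 higher, as they were for DESeq2 calls. DESeq2 called 15.8% of all genes lower and 18.6% higher, and the share over all genes at the unadjusted threshold is not given here. All 10 had negative log2 fold changes with TMM factors, as did 45.5% of all genes, but with library totals in place of TMM factors those of Lamb1, Nid2, Hspg2 and Sparc were positive. The median over the 10 was -0.27, against 0.06 over all genes, and with library totals it was -0.08, against 0.25 over all genes. The median over the 10 was -0.14 without Ubc9-depleted library 1 and -0.48 without library 2, against -0.0051 and 0.25 over all genes. Without Ubc9-WT library 1 or 2 it was -0.20 or -0.36, against 0.24 or 0.22. More of these 10 and of all genes were called lower without Ubc9-depleted library 2, and fewer without either Ubc9-WT library.

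In H1-TKO cells 2 of the 10 rose (Lama5 and Nid1) and 0 fell, where 8.59% of the 14800 genes tested were called higher and 8.43% lower. The log2 fold changes were positive for 5 genes and negative for 5, with a median of 0.09, against -0.02 over all genes. At an unadjusted edgeR p under 0.05 the counts were 3 higher and 2 lower, with no share over all genes given. DESeq2 called 3 higher and 1 lower, where it called 11.5% of all genes higher and 11.7% lower. Calls depended on which libraries were present. Fewer of these 10 and of all genes were called without either H1-TKO library, and more without either H1-WT library. The median over the 10 was -0.03 without H1-TKO library 1 and 0.17 without library 2, against -0.05 and -0.04 over all genes. Without H1-WT library 1 or 2 it was 0.08 or 0.11, against 0.03 over all genes in each.

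Lama1 (ENSMUSG00000032796, chr17:67697259-67822647 on GRCm38, 63 exons in its longest transcript) encodes the alpha 1 chain of laminin-111, the laminin of the earliest embryonic basement membranes. It stood at 34.7 and 41.3 CPM in Ubc9-depleted libraries, against 70.8 and 61.3 CPM in Ubc9-WT libraries. Both Ubc9-depleted libraries lay below both Ubc9-WT libraries. Its log2 fold change was -0.80 ± 0.12 (SE), with an edgeR adjusted p of 5.16e-06, and it was the only one of the 10 genes called in the Ubc9 comparison under all 10 alternative settings, between -1.01 and -0.62. Lama1 stood at 18.5 and 20.02 CPM in H1-TKO libraries, against 31.9 and 30.6 CPM in H1-WT libraries, and the groups again did not overlap. That log2 fold change of -0.70 ± 0.20 missed the threshold (edgeR adjusted p = 0.0551). It passed under 6 of 10 alternatives, which were DESeq2, library totals, no filter, all 8 libraries in 1 fit and leaving out either H1-WT library, with adjusted p over the 10 between 1.19e-05 and 0.609.

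Lama5 (ENSMUSG00000015647, chr2:180176373-180225859, 79 exons) encodes the alpha 5 chain of laminin-511, a substrate on which pluripotent cells are grown. It stood at 101 and 130.05 CPM in Ubc9-depleted libraries, against 149 and 128 CPM in Ubc9-WT libraries. The groups overlapped, and the log2 fold change of -0.26 ± 0.13 was not called (edgeR adjusted p = 0.120). In H1-TKO libraries it reached 175 and 140.2 CPM, against 73.5 and 85.6 CPM in H1-WT libraries. Both H1-TKO libraries were above both H1-WT libraries, and Lama5 rose by 0.98 ± 0.21 on the log2 scale (edgeR adjusted p = 0.0197). The call was lost without H1-TKO library 1 (adjusted p = 0.430) or library 2 (0.155) in the same edgeR fit, with the direction kept.

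Lamb1 (ENSMUSG00000002900, chr12:31265234-31329644, 33 exons), the beta 1 chain of laminin-111 and laminin-511, stood at 29.1 and 30.4 CPM in Ubc9-depleted libraries, against 33.4 and 30.7 CPM in Ubc9-WT libraries. It stood at 27.9 and 22.4 CPM in H1-TKO libraries, against 22.0 and 20.9 CPM in H1-WT libraries. Neither difference was called, with log2 fold changes of -0.11 ± 0.11 after Ubc9 depletion and 0.23 ± 0.22 after H1 loss (edgeR adjusted p = 0.458 and 0.515). Lamb2 (ENSMUSG00000052911, chr9:108479736-108490530, 33 exons), a beta chain prominent in the kidney and at the neuromuscular junction, stood at 38.7 and 40.7 CPM in Ubc9-depleted libraries, against 54.7 and 48.6 CPM in Ubc9-WT libraries. It fell by 0.38 ± 0.11 on the log2 scale (edgeR adjusted p = 0.00971). That call was lost with library totals (adjusted p = 0.164) and without Ubc9-WT library 1 (0.323) or library 2 (0.0655), and with all 8 libraries in 1 fit (0.207), all by edgeR. In the H1 comparison Lamb2 was the least abundant member in CPM, at 11.8 and 8.16 CPM in H1-TKO libraries, against 13.3 and 16.3 CPM in H1-WT libraries. Both H1-TKO values lay below both H1-WT values, but the log2 fold change of -0.57 ± 0.27 was not called (edgeR adjusted p = 0.201).

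Lamc1 (ENSMUSG00000026478, chr1:153218922-153332786, 28 exons) encodes the gamma 1 chain found in most laminins. It stood at 768 and 886 CPM in Ubc9-depleted libraries, against 1038 and 958 CPM in Ubc9-WT libraries. In H1-TKO libraries it stood at 422 and 391.8 CPM, against 488 and 440.0 CPM in H1-WT libraries. In both comparisons the groups did not overlap and the lower values were those of the perturbed cells, yet neither log2 fold change was called. They were -0.27 ± 0.13 after Ubc9 depletion and -0.19 ± 0.18 after H1 loss (edgeR adjusted p = 0.109 and 0.519). DESeq2 called Lamc1 lower in Ubc9-depleted cells (adjusted p = 0.0277), as did edgeR without Ubc9-depleted library 2 (0.000784). Lamc1 shares 3341 bases with Gm38009 on its own strand and 1047 bases with Gm8818 on the opposite strand. Whether counting used strand is not given in the sources used here, for Lamc1 or for the other genes with an opposite-strand overlap (Nid1, Nid2 and Fn1).

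Nid1 (ENSMUSG00000005397, chr13:13437551-13512269, 20 exons) encodes nidogen 1, which binds the laminin gamma 1 chain and collagen IV. It stood at 533 and 582 CPM in Ubc9-depleted libraries, against 732 and 807 CPM in Ubc9-WT libraries. It stood at 623 and 599.8 CPM in H1-TKO libraries, against 331 and 295 CPM in H1-WT libraries. The groups were apart in both comparisons and in opposite directions. Nid1 fell by 0.47 ± 0.13 on the log2 scale in Ubc9-depleted cells (edgeR adjusted p = 0.00658) and rose by 0.97 ± 0.18 in H1-TKO cells (edgeR adjusted p = 0.0131). The first call was lost without Ubc9-WT library 1 (adjusted p = 0.379) or library 2 (0.583) and with all 8 libraries in 1 fit (0.0923), and the second without H1-TKO library 1 (0.255) or library 2 (0.214), all by edgeR and with the direction kept. An antisense gene of GENCODE, Gm48682, overlaps Nid1 by 8063 bases.

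Nid2 (ENSMUSG00000021806, chr14:19751265-19811787, 21 exons), the second nidogen, stood at 351 and 403 CPM in Ubc9-depleted libraries, against 391.9 and 390.8 CPM in Ubc9-WT libraries, and these groups overlapped. It stood at 129 and 115 CPM in H1-TKO libraries, against 174 and 162 CPM in H1-WT libraries, which did not overlap. Neither was called, at -0.06 ± 0.13 after Ubc9 depletion and -0.46 ± 0.19 after H1 loss on the log2 scale (edgeR adjusted p = 0.765 and 0.1395). The 3′ end of Nid2 overlaps Rtraf on the opposite strand by 437 bases.

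Hspg2 (ENSMUSG00000028763, chr4:137468769-137570630, 97 exons) encodes perlecan, a heparan sulfate proteoglycan that binds growth factors. It stood at 75.0 and 84.8 CPM in Ubc9-depleted libraries, against 99.5 and 79.5 CPM in Ubc9-WT libraries, with overlap. It stood at 122 and 99.6 CPM in H1-TKO libraries, against 66.9 and 89.3 CPM in H1-WT libraries, without overlap. Neither passed the test, with log2 fold changes of -0.16 ± 0.12 and 0.50 ± 0.23 in the Ubc9 and H1 comparisons (edgeR adjusted p = 0.312 and 0.175).

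Sparc (ENSMUSG00000018593, chr11:55394500-55423183, 10 exons) encodes osteonectin, a calcium- and collagen-binding protein of the matrix. It stood at 441 and 536 CPM in Ubc9-depleted libraries, against 561 and 527 CPM in Ubc9-WT libraries, and the groups overlapped. In H1-TKO libraries it stood at 1562 and 1722 CPM, against 880.3 and 1134 CPM in H1-WT libraries, with no overlap. The log2 fold changes were -0.16 ± 0.13 after Ubc9 depletion and 0.71 ± 0.21 after H1 loss, and neither passed (edgeR adjusted p = 0.378 and 0.0575). Sparc was called higher in H1-TKO cells under 7 of 10 alternatives, DESeq2 among them (adjusted p = 0.0175), with adjusted p over the 10 between 7.75e-08 and 0.546.

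Fn1 (ENSMUSG00000026193, chr1:71585520-71653200, 46 exons) encodes fibronectin, a cell-adhesive protein bound by integrin alpha 5 beta 1. It stood at 1727 and 2044 CPM in Ubc9-depleted libraries, against 2374 and 2285 CPM in Ubc9-WT libraries. It stood at 1099 and 1069 CPM in H1-TKO libraries, against 1052 and 1201 CPM in H1-WT libraries. The Ubc9 groups did not overlap and the H1 groups did. The log2 fold changes were -0.31 ± 0.13 and -0.06 ± 0.19 in the Ubc9 and H1 comparisons, neither called (edgeR adjusted p = 0.0709 and 0.870). With the replicate block or DESeq2, Fn1 was called lower in Ubc9-depleted cells (adjusted p = 0.0311 and 0.0146), as it was in edgeR without Ubc9-depleted library 2 (0.000176). Apol7d, on the opposite strand, overlaps Fn1 by 364 bases.

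**Figure D2:**
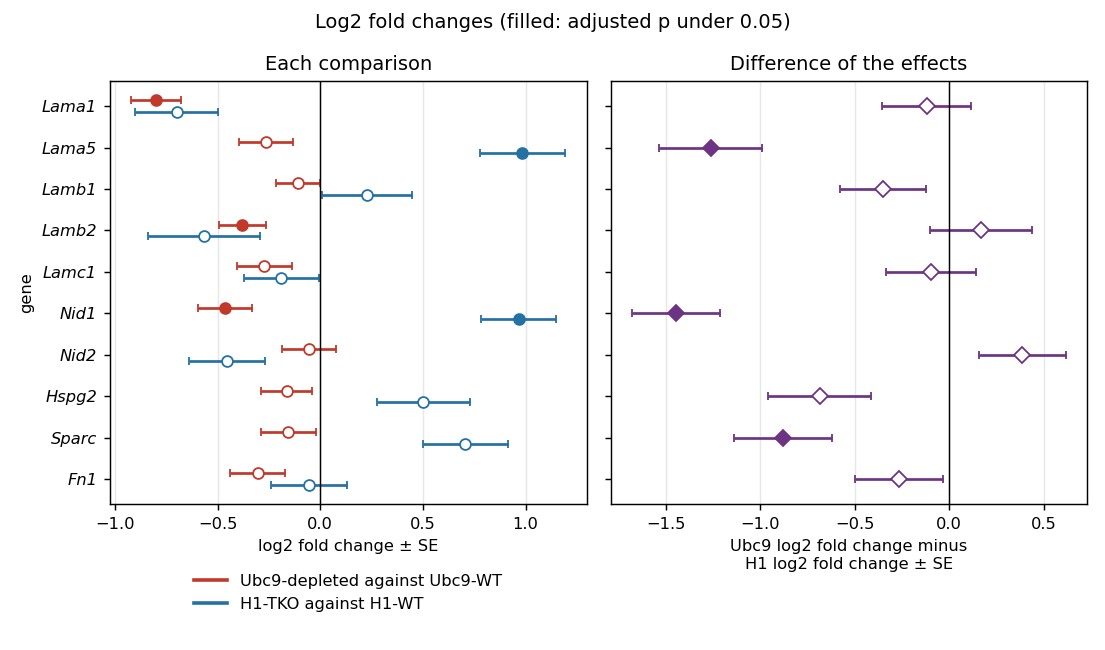
Log2 fold changes ± SE of the 10 genes in each comparison (left) and the difference of the effects, Ubc9 minus H1 (right), filled where the adjusted p was under 0.05. Lama1 lies left of 0 in both comparisons, while Lama5, Nid1 and Sparc lie on opposite sides of 0 and their difference is filled. With library totals in place of TMM factors the Ubc9 value of Sparc lies right of 0, at 0.03.

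The effects of the perturbations were compared in a fit of all 8 libraries, as the log2 fold change of Ubc9 depletion minus that of H1 loss. This difference passed for 3 of the 10 genes, all lower, where 6.43% of 16974 genes were called lower and 8.08% higher. A negative difference means a lower log2 fold change after Ubc9 depletion than after H1 loss. It was -1.45 ± 0.23 for Nid1 (edgeR adjusted p = 0.00232), -1.26 ± 0.27 for Lama5 (0.0113) and -0.88 ± 0.26 for Sparc (0.0452). The Nid1 difference was called under all 13 alternatives. That of Lama5 was called under 12 of 13, with an adjusted p of 0.0600 in edgeR without Ubc9-depleted library 1. That of Sparc was called under 7 of 13, its call being lost with library totals and without Ubc9-depleted library 1, either Ubc9-WT library or either H1-TKO library, with adjusted p up to 0.208 in edgeR. Hspg2 had a difference of -0.69 ± 0.27 that was not called (edgeR adjusted p = 0.120), but it was called by DESeq2 (adjusted p = 0.0456) and in edgeR without H1-WT library 1 (0.0494) or library 2 (0.000305). Lama1 had the same sign in both comparisons, and its difference was -0.12 ± 0.24 (edgeR adjusted p = 0.789), or 0.17 with library totals. For Lamc1, with values of -0.27 and -0.19, the difference was -0.10 ± 0.24 (edgeR adjusted p = 0.834), or 0.19 with library totals. Misses at this precision do not show that effects were alike. Library totals moved the median difference over all genes to 0.40, against 0.10 with TMM factors.

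The balance among laminin chains was followed per kilobase of exons, where levels of different genes can be set side by side. Lama5 over Lama1 was 2.47 and 2.68 in Ubc9-depleted libraries, against 1.79 and 1.77 in Ubc9-WT libraries. It was 8.02 and 5.95 in H1-TKO libraries, against 1.96 and 2.38 in H1-WT libraries. The ratio was higher in both perturbed lines than in their controls, with lower Lama1 values in both and higher Lama5 values in H1-TKO cells. With 2 libraries a group an exact permutation test of such a ratio cannot give a two-sided p under 0.333, so these ratios are descriptions.

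Among the 5 alpha chains, Lama1 made up 17.8% and 18.0% of the summed CPM per kilobase in Ubc9-depleted libraries, against 26.0% and 25.01% in Ubc9-WT libraries. Its share was 9.23% and 11.6% in H1-TKO libraries, against 29.6% and 26.8% in H1-WT libraries. Both perturbed lines thus had a smaller Lama1 share than their control in both libraries. Lama5 made up 43.9% and 48.1% in Ubc9-depleted libraries, against 46.6% and 44.2% in Ubc9-WT libraries, which overlap, and 74.0% and 68.8% in H1-TKO libraries, against 57.9% and 63.7% in H1-WT libraries. Lama3, the alpha chain of the epithelial laminin-332, made up most of the rest, at 36.2% and 33.0% in Ubc9-depleted libraries, against 26.9% and 30.4% in Ubc9-WT libraries. In the H1 comparison the Lama3 share was 15.7% and 18.5% in H1-TKO libraries, against 11.7% and 9.11% in H1-WT libraries.

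**Figure D3:**
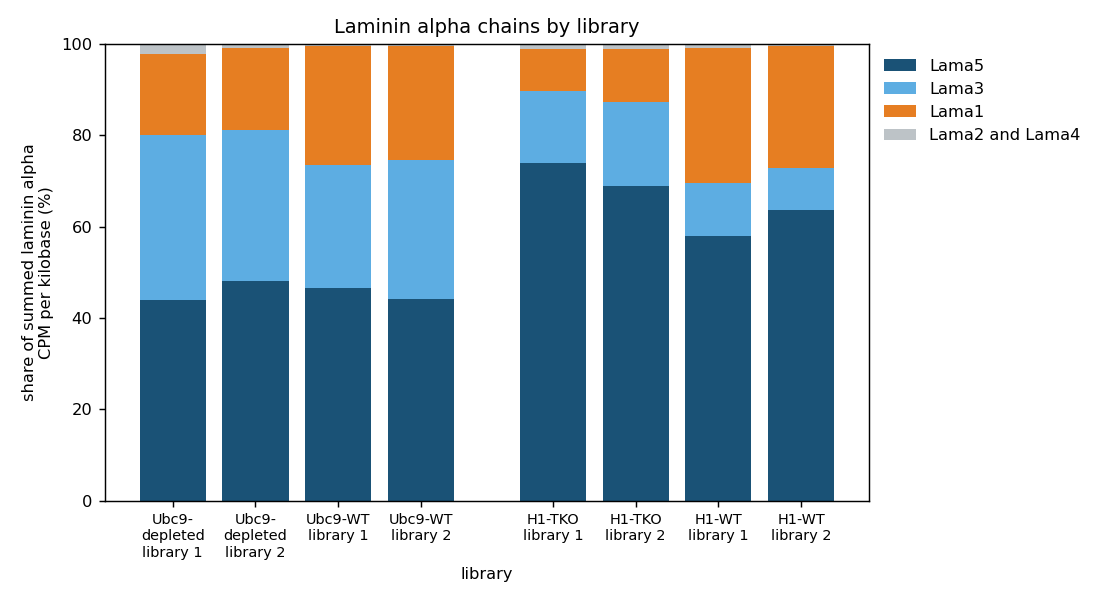
Share of each laminin alpha chain in the summed CPM per kilobase of exons of the 5 alpha chains, one stacked bar per library. The orange Lama1 segment is smaller in the Ubc9-depleted bars (17.8% and 18.0%) than in the Ubc9-WT bars (26.0% and 25.01%), and smaller in the H1-TKO bars (9.23% and 11.6%) than in the H1-WT bars (29.6% and 26.8%).

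Gamma chains, summed per kilobase, exceeded alpha and beta chains in every library. Summed gamma over summed alpha chains was 4.90 and 4.77 in Ubc9-depleted libraries, against 4.76 and 4.89 in Ubc9-WT libraries, and 2.73 and 2.96 in H1-TKO libraries, against 6.12 and 5.42 in H1-WT libraries. The H1-TKO ratios were thus below both H1-WT ratios, while the Ubc9 groups overlapped. Lamb1 over Lamb2 was 0.460 and 0.458 in Ubc9-depleted libraries, against 0.374 and 0.387 in Ubc9-WT libraries. It was 1.45 and 1.69 in H1-TKO libraries, against 1.02 and 0.788 in H1-WT libraries. Which beta chain was higher in H1-WT cells depended on the gene length used. With the longest transcript Lamb1 over Lamb2 was 0.730 and 0.727 in Ubc9-depleted libraries, against 0.594 and 0.615 in Ubc9-WT libraries, and 2.30 and 2.67 in H1-TKO libraries, against 1.61 and 1.25 in H1-WT libraries.

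The balance between the nidogens was followed in the same way. Nid1 over Nid2 per kilobase was 1.13 and 1.08 in Ubc9-depleted libraries, against 1.39 and 1.54 in Ubc9-WT libraries. It was 3.58 and 3.87 in H1-TKO libraries, against 1.42 and 1.36 in H1-WT libraries, so the ratio was lower after Ubc9 depletion and higher after H1 loss than in the control of each. Nid1 over Lamc1, its laminin partner, was 0.826 and 0.782 in Ubc9-depleted libraries, against 0.840 and 1.00 in Ubc9-WT libraries. It was 1.76 and 1.82 in H1-TKO libraries, against 0.808 and 0.800 in H1-WT libraries. These pairs did not overlap between perturbed and control cells in either comparison.

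**Figure D4:**
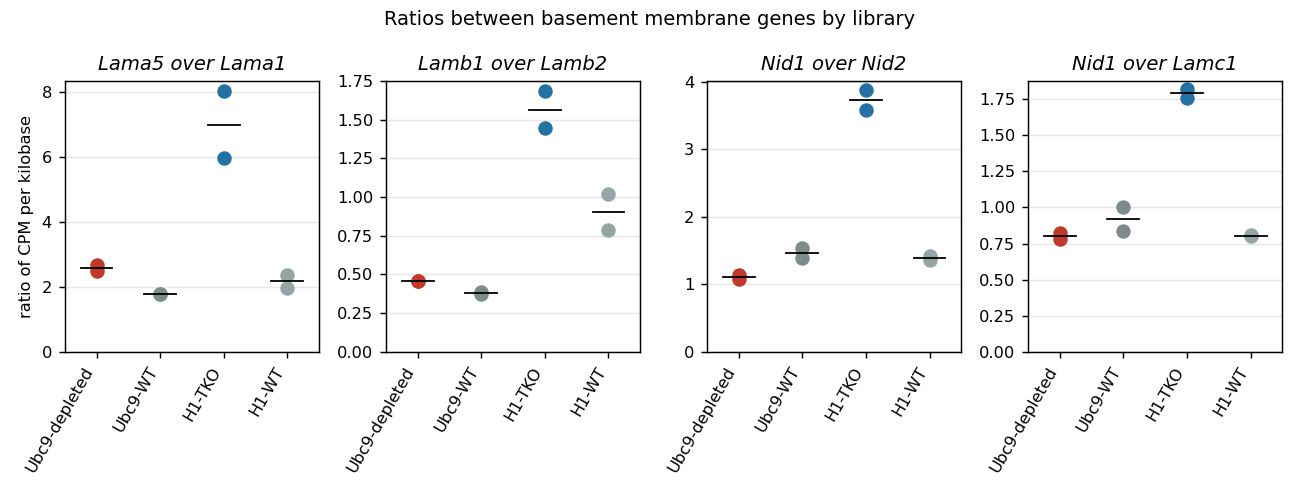
Ratios of CPM per kilobase of exons between genes in each library (points) with the mean of each group of 2 (line), each axis starting at 0. In H1-TKO libraries Lama5 over Lama1 (8.02 and 5.95), Nid1 over Nid2 (3.58 and 3.87) and Nid1 over Lamc1 (1.76 and 1.82) lie above both H1-WT libraries.

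Levels per kilobase spanned a wide range, with the ratio of the highest to the lowest of the 10 genes between 50.4 and 63.1 in Ubc9 libraries and between 106 and 339 in H1 libraries. In Ubc9-depleted cells the mean CPM per kilobase was 161 for Fn1, 129 for Sparc, 99.97 for Lamc1, 80.3 for Nid1 and 72.8 for Nid2. It then dropped to 10.1 for Lama5, 6.53 for Lamb2, 5.59 for Hspg2, 3.92 for Lama1 and 3.00 for Lamb1. Only Nid1 and Nid2 overlapped among neighbours in that order. In Ubc9-WT cells the order of the first 7 was the same, with Fn1 at 199 CPM per kilobase and Lamc1 (121) overlapping Nid1 (111). Lama1 came next at 6.83 CPM per kilobase and overlapped Hspg2 at 6.26.

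In the H1 lines Sparc led, with a mean of 433 CPM per kilobase in H1-TKO cells and 266 in H1-WT cells, ahead of Fn1 at 92.8 in H1-TKO cells and 96.4 in H1-WT cells. Nid1 came before Lamc1 in H1-TKO cells (88.0 and 49.2 CPM per kilobase) and after it in H1-WT cells (45.1 and 56.1). At the low end Lama1 (1.99) and Lamb2 (1.64) overlapped in H1-TKO cells, as did Lamb2 (2.43) and Lamb1 (2.17) in H1-WT cells. The tables came from different kits and were normalized separately, so levels are not compared between them. Lengths are unions of annotated exons, and with the longest transcript 5 of the 40 ranks changed, all among Lama1, Lamb1 and Lamb2.

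Of the 6 other laminin chains tested in the Ubc9 comparison 4 rose, where 21.1% of all genes tested were called higher. The median log2 fold change of the 6 was 2.26. Lama2 and Lamc3, which had the largest log2 fold changes of this list, had few counts outside Ubc9-depleted library 1. Lama2, the alpha chain of muscle laminin, had 1.91 and 0.170 CPM in Ubc9-depleted libraries, against 0.0618 and 0.109 CPM in Ubc9-WT libraries, and Lamc3, a gamma chain, had 1.79 and 0.196 CPM in Ubc9-depleted libraries, against 0.0618 and 0.0435 CPM in Ubc9-WT libraries. Without Ubc9-depleted library 1 the count of those higher was 2 and the median 0.99, and without either Ubc9-WT library no rise in this list held in edgeR. Lama4, the alpha chain of vascular laminins, rose by 1.28 ± 0.37 on the log2 scale (edgeR adjusted p = 0.00765). In H1-TKO cells 1 of the 3 tested rose, where 8.59% of all genes tested were called higher. Lama3 stood at 34.9 and 35.6 CPM in H1-TKO libraries, against 14.0 and 11.6 CPM in H1-WT libraries, and rose by 1.46 ± 0.22 on the log2 scale (edgeR adjusted p = 0.00534). That call held without each H1 library in turn.

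Collagen IV, the network that nidogen 1 binds, went the other way from Nid1 after Ubc9 depletion. Col4a1 stood at 11.8 and 10.6 CPM in Ubc9-depleted libraries, against 5.29 and 5.18 CPM in Ubc9-WT libraries. Col4a2 stood at 10.4 and 9.70 CPM in Ubc9-depleted libraries, against 4.94 and 4.24 CPM in Ubc9-WT libraries. Both rose, by 1.10 ± 0.14 and 1.13 ± 0.15 on the log2 scale (edgeR adjusted p = 4.08e-07 and 8.55e-07), and both calls held without each library in turn. They were 2 of 3 collagen IV genes tested, with 0 lower, also at an unadjusted p under 0.05 and by DESeq2. Among all genes tested in the Ubc9 comparison, edgeR called 21.1% higher and 15.0% lower. In H1-TKO cells 1 of 2 rose, where 8.59% of all genes tested were called higher and 8.43% lower. This was Col4a2, at 3.70 and 3.43 CPM in H1-TKO libraries, against 0.952 and 1.07 CPM in H1-WT libraries. Its call was lost without either H1-TKO library. Col4a1 was at 5.18 and 5.002 CPM in H1-TKO libraries, against 3.40 and 4.58 CPM in H1-WT libraries, and was not called.

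Of 19 other basement membrane genes tested in the Ubc9 comparison 12 rose and 2 fell, with a median log2 fold change of 1.05, against 9 higher and 2 lower without Ubc9-depleted library 1 and 7 or 6 higher and 1 lower without Ubc9-WT library 1 or 2. Over all genes tested there, 21.1% were called higher and 15.0% lower. The summed CPM of the 21 listed genes counted was 480 and 493 in Ubc9-depleted libraries, against 513 and 453 in Ubc9-WT libraries. These sums overlapped. Ntn1, the secreted guidance cue netrin 1, rose by 0.87 ± 0.11 and the elastic-fibre protein Fbln5 by 1.10 ± 0.13, while Fbln1, which binds laminin and fibronectin, fell by 0.53 ± 0.11 (edgeR adjusted p = 4.63e-07, 1.82e-07 and 0.000357). Of 16 tested in the H1 comparison 8 rose and 3 fell, with 5 higher and 3 lower without either H1-TKO library. Over all genes tested in the H1 comparison, 8.59% were called higher and 8.43% lower. Ntn1 stood at 118 and 124 CPM in H1-TKO libraries, against 20.95 and 31.5 CPM in H1-WT libraries, and rose by 2.21 ± 0.25 (edgeR adjusted p = 0.00193). The heparan sulfate proteoglycans agrin and collagen XVIII fell, Agrn by 1.56 ± 0.20 and Col18a1 by 1.85 ± 0.25 on the log2 scale (edgeR adjusted p = 0.00285 and 0.00348). Perlecan, the third large proteoglycan of basement membranes, had a positive value of 0.50 in the same comparison and was not called.

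Of 18 receptor genes tested in Ubc9-depleted cells 3 rose and 4 fell, shares near those over all genes (21.1% higher and 15.0% lower). The laminin receptor chains Itga6, Itga3 and Bcam were among those that fell, by 0.50 ± 0.13, 0.82 ± 0.12 and 0.63 ± 0.12 on the log2 scale (edgeR adjusted p = 0.00282, 1.87e-06 and 0.000113). The Itga6 call was lost without either Ubc9-WT library. Among the receptor genes that rose was the syndecan Sdc1. It stood at 28.3 and 27.8 CPM in Ubc9-depleted libraries, against 18.7 and 17.8 CPM in Ubc9-WT libraries. In H1-TKO cells 4 of 18 rose and 4 fell, where 8.59% of all genes were called higher and 8.43% lower. Itgb5, the beta chain of a vitronectin receptor, stood at 216 and 218 CPM in H1-TKO libraries, against 33.7 and 42.0 CPM in H1-WT libraries, and the syndecan Sdc4 stood at 158 and 146 CPM in H1-TKO libraries, against 34.4 and 41.0 CPM in H1-WT libraries. Dag1, the laminin receptor dystroglycan, and Bcam fell by 0.70 ± 0.19 and 0.84 ± 0.23 on the log2 scale (edgeR adjusted p = 0.0451 and 0.0472), calls that did not hold without either H1-TKO library. Without H1-TKO library 1 or 2 the counts were 3 higher and 0 lower.

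**Figure D5:**
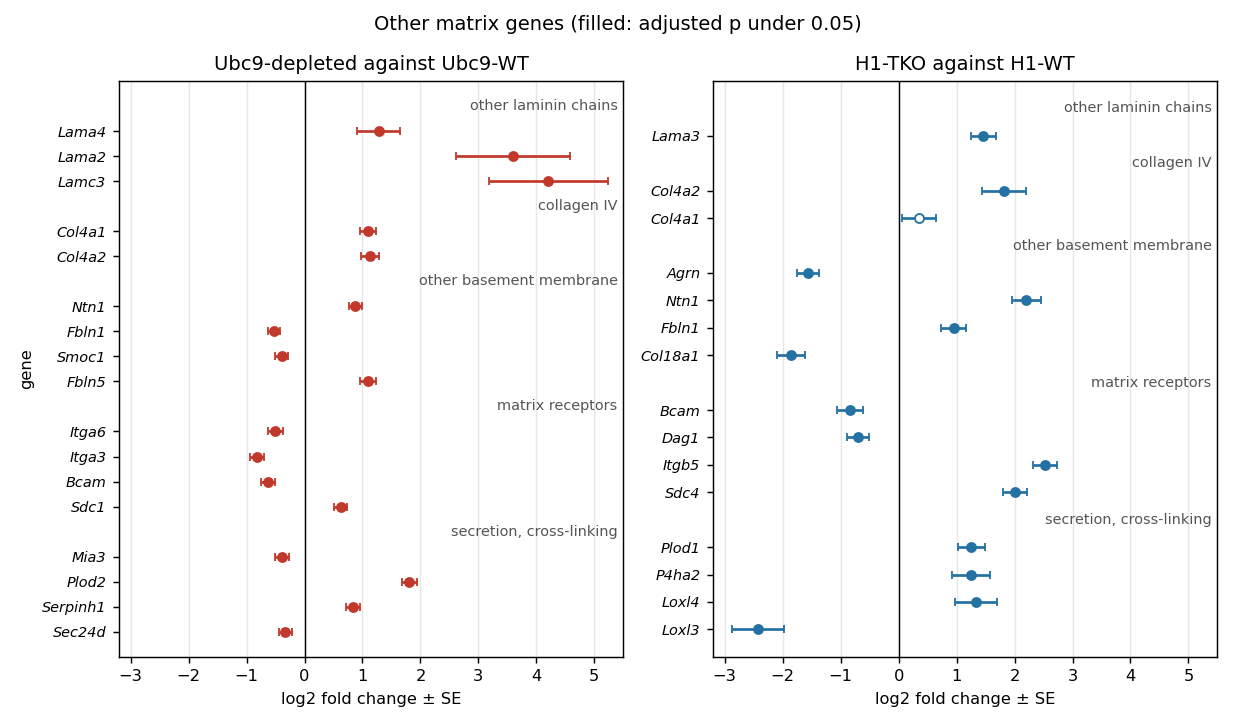
Log2 fold changes ± SE of other matrix genes, up to 4 per list chosen as those called with the highest mean CPM (collagen IV in the H1 comparison filled up to 2) and not all shown, filled where the adjusted p was under 0.05. Col4a1 and Col4a2 lie near 1.1 in the Ubc9 comparison, and the wide bars of Lama2 and Lamc3 belong to genes under 2 CPM in every library.

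Of 20 genes for matrix secretion and cross-linking tested in Ubc9-depleted cells 5 were higher and 2 lower, also near the shares over all genes (21.1% and 15.0%), and without either Ubc9-WT library 4 were higher and 0 lower. In H1-TKO cells 3 of 19 were higher and 1 lower, where 8.59% and 8.43% of all genes were, and without either H1-TKO library 0 were higher and 1 lower by edgeR. DESeq2 on all 4 H1 libraries called 4 higher and 2 lower, and an unadjusted edgeR p under 0.05 gave 5 and 4. Plod2, a collagen lysyl hydroxylase, stood at 146 and 164 CPM in Ubc9-depleted libraries, against 40.9 and 47.7 CPM in Ubc9-WT libraries. Serpinh1, the collagen chaperone HSP47, stood at 100.4 and 115 CPM in Ubc9-depleted libraries, against 62.95 and 57.5 CPM in Ubc9-WT libraries. Both rose, by 1.81 ± 0.13 and 0.84 ± 0.12 on the log2 scale (edgeR adjusted p = 1.76e-12 and 2.43e-06). In H1-TKO cells Plod1, another lysyl hydroxylase, rose by 1.25 ± 0.23 and Loxl3, a lysyl oxidase, fell by 2.43 ± 0.45 (edgeR adjusted p = 0.0119 and 0.0124). The Plod1 call did not hold without either H1-TKO library. Loxl3 stood at only 0.525 and 0.610 CPM in H1-TKO libraries, against 2.45 and 3.71 CPM in H1-WT libraries.

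Markers of cell types that make this matrix were counted beside these genes. Over all genes tested, 21.1% were called higher and 15.0% lower in the Ubc9 comparison, and 8.59% and 8.43% in the H1 comparison. Of 13 primitive endoderm genes tested 8 rose and 0 fell in Ubc9-depleted cells (9 higher and 0 lower at an unadjusted edgeR p under 0.05, 8 and 0 by DESeq2). Without Ubc9-WT library 1 or 2 the count higher was 2 or 3 of 16 tested. The summed CPM of the 16 listed was 88.2 and 75.9 in Ubc9-depleted libraries, against 59.3 and 65.9 in Ubc9-WT libraries. Gata6, a factor that specifies this lineage, stood at 5.02 and 3.84 CPM in Ubc9-depleted libraries, against 1.65 and 1.65 CPM in Ubc9-WT libraries, and its call was lost without Ubc9-WT library 1 (edgeR adjusted p = 0.0589) or library 2 (0.0637). Of 12 fibroblast markers 9 rose and 0 fell in Ubc9-depleted cells, the same counts as at an unadjusted p under 0.05 and by DESeq2, but 7 rose without Ubc9-WT library 1 and 5 without library 2. Their sums were 77.1 and 71.7 CPM in Ubc9-depleted libraries, against 38.7 and 36.9 CPM in Ubc9-WT libraries, and none of the 12 was at 0 in any of the 4. Col1a1 and Col3a1 rose by 1.12 ± 0.16 and 1.36 ± 0.16 on the log2 scale (edgeR adjusted p = 2.04e-06 and 8.33e-08). In H1-TKO cells 3 of 12 primitive endoderm genes tested rose and 0 fell (4 higher and 1 lower at an unadjusted edgeR p under 0.05, 3 and 0 by DESeq2), and 1 rose without either H1-TKO library. Their sums were 56.2 and 55.4 CPM in H1-TKO libraries, against 47.5 and 39.7 CPM in H1-WT libraries, and Foxa2, Ttr, Afp or Thbd was at 0 in some libraries. Dab2, an endocytic adaptor of the primitive endoderm, stood at 11.1 and 9.84 CPM in H1-TKO libraries, against 2.05 and 1.26 CPM in H1-WT libraries, and rose by 2.65 ± 0.33 (edgeR adjusted p = 0.00285). Of 5 fibroblast markers tested there 1 rose and 1 fell, sums were 22.7 and 20.3 CPM in H1-TKO libraries, against 17.7 and 26.4 CPM in H1-WT libraries, and Postn was at 0 in all 4. Endothelial markers had 2 of 5 tested higher and 0 lower in each comparison, with 0 lower also at an unadjusted p under 0.05 and by DESeq2, and over leave-outs 1 to 4 higher in Ubc9-depleted cells and 1 or 2 in H1-TKO cells. Their sums were 218 and 256 CPM in Ubc9-depleted libraries, against 223 and 202 CPM in Ubc9-WT libraries, and 195 and 197 CPM in H1-TKO libraries, against 208 and 184 CPM in H1-WT libraries. The summed embryonic stem cell markers were 5392 and 5487 CPM in Ubc9-depleted libraries, against 5891 and 6155 CPM in Ubc9-WT libraries, with 2 of 10 lower (Fgf4 and Tfcp2l1) and 0 higher, also 0 higher at an unadjusted p under 0.05 and by DESeq2. The Tfcp2l1 call was lost without either Ubc9-WT library. In H1-TKO libraries they were 11796 and 11671 CPM, against 6632 and 7207 CPM in H1-WT libraries, with 1 of 10 higher and 1 lower, and over leave-outs 1 to 6 higher and 0 to 2 lower. The 1 higher was Tfcp2l1, at 5416 and 4914 CPM in H1-TKO libraries, against 1778 and 1611 CPM in H1-WT libraries. The part of other cell types in the values of the 10 genes was not tested, and in these bulk libraries fewer cells of a type and less RNA per cell cannot be told apart.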

How the data were processed

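Gene counts of 8 libraries, in 2 tables, were used as deposited by the authors. Per the submitters' processing notes the tools named are cutadapt, STAR, HTSeq and DESeq2 on mm10; for their versions, the annotation and the strand setting, nothing is stated in these sources. Per the labels' protocols the library kit was ScriptSeq v2 for the Ubc9 groups and Lexogen SENSE V2 for the H1 groups.

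Each comparison was fitted on its own 4 libraries in R 4.3.3 with edgeR 4.0.16: filterByExpr (minimum count 10, total 15), TMM factors and the quasi-likelihood F test, with p-values adjusted over all genes tested (Benjamini-Hochberg, 0.05). All 10 genes passed the filter in each comparison. A standard error is the absolute log2 fold change divided by the root of F. The difference of the effects was the interaction contrast of all 8 libraries. CPM used TMM-scaled totals, and CPM per kilobase the union of GENCODE M21 exons (GRCm38). Standard errors include the spread between libraries, and the value given for 3 counts is a conversion by library totals and no measure of error. The fitting code was tested on simulated data.

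Alternatives were DESeq2 1.42.0, RLE factors, library totals, no filter, a replicate block, all 8 libraries in 1 fit, the longest transcript and leaving out each library. The 10 genes and the lists were chosen with earlier results of these data known. Genes named beyond the 10 and the targeted genes are, from each list and comparison, up to 4 of those called, by highest mean CPM, or, where fewer than 2 were called, the most abundant up to 2; some are left out of the text, and some results are not reported here. 1 listed gene, Hmcn2, is not in the tables. Promoter sequences are from RefSeq.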

Additional observations from a re-analysis of the deposited data

Results flagged for a closer look

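The log2 fold change of Nid1 after Ubc9 depletion minus that after H1 loss was -1.45 ± 0.23 (SE, n = 2 libraries in each of 4 groups), and the test of that difference passed (edgeR adjusted p = 0.00232), with the fold change negative in Ubc9-depleted cells and positive in H1-TKO cells. The same difference was -1.26 ± 0.27 for Lama5 (edgeR adjusted p = 0.0113) and -0.881 ± 0.26 for Sparc (edgeR adjusted p = 0.0452). The sign of Sparc in the Ubc9 comparison turned with library totals in place of TMM factors (0.03). Kit and cell line also differ between the comparisons and cannot be told apart from the perturbations.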

How the results depend on the processing

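Numbers of the 10 genes called changed most when a library was left out, a lone library being assumed to vary like the other group. Over leave-outs, 1 to 8 were lower in Ubc9-depleted cells and 795 to 4610 of all genes were lower and 1230 to 8428 higher. In the H1 comparison 0 to 4 were higher and 0 to 3 lower, with 617 to 3994 of all genes higher and 488 to 4038 lower. For the difference of the effects 1 to 4 were lower, with 720 to 3222 of all genes higher and 565 to 2923 lower. DESeq2 called 5 lower in Ubc9-depleted cells, where it called 15.8% of all genes lower. It called 1 lower in H1-TKO cells, where it called 11.7% of all genes lower, and 1775 of all genes lower for the difference. Library totals gave 1084 of all genes lower in Ubc9-depleted cells (78.6% of calls higher, against 58.5% with TMM factors). In H1-TKO cells they gave 1 of the 10 and 9.56% of all genes lower. For the difference they gave 635 of all genes lower (75.1% of calls higher, against 55.7%). Without a filter 1 of the 10 and 1895 of all genes were lower in H1-TKO cells. With all 8 libraries in 1 fit 1 of the 10 was lower in Ubc9-depleted cells, with 1100 of all genes higher and 483 lower, and 1 was lower in H1-TKO cells, with 2205 of all genes higher and 2158 lower. The cause was not tested.

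Signs turned for genes that were not called. With library totals the Ubc9 values were 0.082 for Lamb1, 0.13 for Nid2, 0.022 for Hspg2 and 0.028 for Sparc, and the differences 0.17 for Lama1, 0.19 for Lamc1 and 0.014 for Fn1. Over leave-outs the Ubc9 value of Nid2 ran between -0.24 and 0.037, the H1 value of Fn1 between -0.14 and 0.039, and the differences between -0.31 and 0.019 for Lama1, -0.26 and 0.019 for Lamc1 and -0.086 and 0.41 for Lamb2. With the longest transcript 5 ranks changed.

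The groups share replicate numbers, and same-numbered libraries hardly deviated together. The correlation was 0.0174 over 16499 genes in the Ubc9 comparison and 0.0565 over 14800 genes in the H1 comparison. With 2 libraries a group this cannot tell whether same-numbered libraries shared a culture or batch. With the replicate block 4 of the 10 were lower in Ubc9-depleted cells, where 16% of all genes were called lower. In H1-TKO cells 3 were higher, where 11.7% of all genes were. For the difference 3 were lower, where 7.76% of all genes were.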
